A study of Mus musculus with 18 samples.

Results

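The 44 genes described here encode the liver's share of complement and blood coagulation, with their inhibitors and 3 receptor or cell-surface genes (C3ar1, C5ar1 and F3). They were taken by gene symbol, from a list drawn up with earlier results of these data known, and 44 of 44 were found among the 58126 genes of the deposited expression table. RNA was sequenced from 18 mouse liver libraries. Ftcd, a liver enzyme that links histidine breakdown to folate metabolism, was deleted in the liver (LKO) or left intact in mice labelled wild type (WT), and the promoter driving the deletion is not given in the sources used here. Untreated livers came from WT (3 libraries) and LKO mice (3 libraries) aged 12 months. The other mice received diethylnitrosamine (DEN), a carcinogen that hepatocytes activate, in a dose of 20 mg/kg when 14 days old, and were examined 12 months after it. From them came 6 libraries of WT nontumour liver, 3 of LKO nontumour liver and 3 of LKO tumours. All mice ate regular chow. The labels do not say that replicates are separate animals, so p-values measure the spread between these libraries, which may be partly technical.

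Complement is a cascade of plasma proteins, most of them made by hepatocytes. It starts on antibody (classical route), on microbial sugars (lectin route) or spontaneously (alternative route), converges on cleavage of C3, and ends with the pore built from C5b, C6, C7, C8 and C9. Coagulation is a cascade of proteases that the liver secretes as inactive precursors; it runs from contact factors or tissue factor to thrombin and fibrin, is held back by protein C, protein S and serpins, and is undone by plasmin. Properdin (Cfp) is an exception among these genes, because myeloid cells are its usual source, and factor D (Cfd) is best known from fat tissue.

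The values are TPM, transcript abundances corrected for gene length and scaled to a fixed total per library. The depth of each library is unknown, because this scaling removes it. In bulk tissue, fewer cells of a type and less RNA per cell cannot be told apart. Ftcd stood at 0.10 to 3.16 TPM in the 9 LKO libraries and at 61.2 to 106.1 TPM in 6 of the 9 libraries labelled WT. It stood at only 1.77 to 2.50 TPM in the other 3 (untreated WT 3, DEN WT 1 and DEN WT 2), which go against their label on this gene. The main results of the comparisons of LKO with WT are also given without these 3. Xist and Y-linked transcripts marked 11 libraries as XX and 7 as XY: the 9 WT libraries were XX, the 3 untreated LKO libraries were XY, and of the LKO nontumour and LKO tumour libraries number 1 was XX and numbers 2 and 3 were XY. In untreated liver, genotype and sex therefore cannot be told apart. Hepatocyte markers summed to between 15099 and 87586 TPM in every library. Mitochondrially encoded genes took 4.24% to 38.8% of TPM, and whatever they take is lost to other genes. Differences below are log2 fold changes of log2(TPM + 1) with their standard error (SE), from 1 limma fit of all 18 libraries; that scale understates the change of low genes. Of 44 genes, 42 were tested; C7 and C5ar1 were below 1 TPM in too many libraries.

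The sequence in front of 4 genes is shown, because C6, C8a and C9 all stood higher in the untreated LKO libraries than in the untreated WT libraries and Cfp was the one gene to pass a test. The letters come from RefSeq windows on GRCm38.p6, which held 34 of the 44 genes, and run 5′ to 3′ up to the gene start. Capitals mark the match to TTCNNNGAA, the palindrome bound by STAT factors, searched on both strands.
C8a (chr4:104876399-104876648, minus strand): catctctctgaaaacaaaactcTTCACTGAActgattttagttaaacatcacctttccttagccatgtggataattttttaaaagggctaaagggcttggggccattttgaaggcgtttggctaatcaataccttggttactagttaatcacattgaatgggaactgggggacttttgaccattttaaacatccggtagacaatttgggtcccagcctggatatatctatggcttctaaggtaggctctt
C6 (chr15:4726960-4727174, plus strand): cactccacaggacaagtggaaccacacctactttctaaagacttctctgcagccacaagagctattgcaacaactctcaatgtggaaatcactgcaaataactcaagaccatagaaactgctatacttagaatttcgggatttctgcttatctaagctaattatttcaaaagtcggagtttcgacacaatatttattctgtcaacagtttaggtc
C9 (chr15:6445096-6445326, plus strand): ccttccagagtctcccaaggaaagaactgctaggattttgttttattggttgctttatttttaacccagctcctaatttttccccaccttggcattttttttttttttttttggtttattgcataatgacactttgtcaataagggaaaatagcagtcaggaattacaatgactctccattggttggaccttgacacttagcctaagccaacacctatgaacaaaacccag
Cfp (chrX:20931556-20931805, minus strand): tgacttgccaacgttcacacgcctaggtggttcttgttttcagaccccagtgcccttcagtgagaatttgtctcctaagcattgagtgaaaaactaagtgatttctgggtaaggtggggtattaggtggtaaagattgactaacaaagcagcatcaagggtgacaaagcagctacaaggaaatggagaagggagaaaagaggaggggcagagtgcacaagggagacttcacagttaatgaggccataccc
In full windows of 300 bases (250 before the start), TTCNNNGAA occurred in 7 of the 36 windows of these genes, those of C1ra, C7, C8a, F9, Masp2, Pros1 and Vtn, and in 8.3% of all 32851 windows. In C8a the match begins 228 bases before the start (-228). C6, C9 and Cfp held no match in their windows. These matches describe letters and not bound sites.

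C4a and C4b, the tandem copies of complement C4 on chromosome 17, are shown next, because they behaved differently although their reads are hard to separate. C4b (chr17:34728380-34743882 on mm10) carries the usual C4 function, and C4a (chr17:34809092-34823464) is known as the gene of sex-limited protein, named for its restriction to males in many strains. The GENCODE M21 annotation lists C4a as a processed transcript with no coding frame. Its longest transcript matched the coding sequence of C4b at 5003 of 5204 aligned bases (96.1%), and the longest stretch without a difference was 433 bases. The 90 bases with the most differences (14) are given with the differing bases in capitals.
C4a transcript, bases 2725 to 2814: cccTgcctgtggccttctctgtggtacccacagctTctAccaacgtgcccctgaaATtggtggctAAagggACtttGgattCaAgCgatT
C4b coding sequence, bases 2675 to 2764: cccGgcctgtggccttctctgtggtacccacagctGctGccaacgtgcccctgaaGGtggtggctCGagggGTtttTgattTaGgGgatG
Reads from the identical stretches can be split between the copies by the authors' counting, so both levels are uncertain. The same holds for Kng1 and Kng2 (92.7% identical over their coding sequences), for C1ra and its copy C1rb (98.0%) and for C1s1 and C1s2 (95.7%). Mbl1 and Mbl2, at 65.1%, differ far more.

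The levels of these genes varied widely between libraries of 1 group. Together they made up 2.525% to 3.135% of TPM in the 6 WT libraries that kept Ftcd and 0.832% to 2.053% in the other 12. The mitochondrial share was 4.24% to 10.01% in those 6 and 6.47% to 38.8% in those 12 (DEN WT 2, at 6.47%, was the 1 library of the 12 within the range of the 6). Of the TPM outside the mitochondrially encoded genes, the 44 genes made up 2.699% to 3.279% in the 6 and 1.202% to 2.294% in the 12. DEN WT 1, with the largest mitochondrial share of the 18, was the lowest of its 6 libraries for 37 of the 42 tested genes (59.2% of all tested genes were lowest there). Untreated WT 3 was the lowest of its 3 libraries for 35 of 42 (42.6% of all tested genes). The highest library exceeded the lowest by a median of 9.47 times over the 41 genes above 0 everywhere, beside 8.56 times over all 11837 such genes. Plasma prekallikrein (Klkb1) was the steadiest, with a ratio of 1.98 between 30.2 and 59.9 TPM, followed by C4b at 2.82. The ratio was 47.5 for C4a, 57.8 for C6 and 61.6 for C8a.

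**Figure D1:**
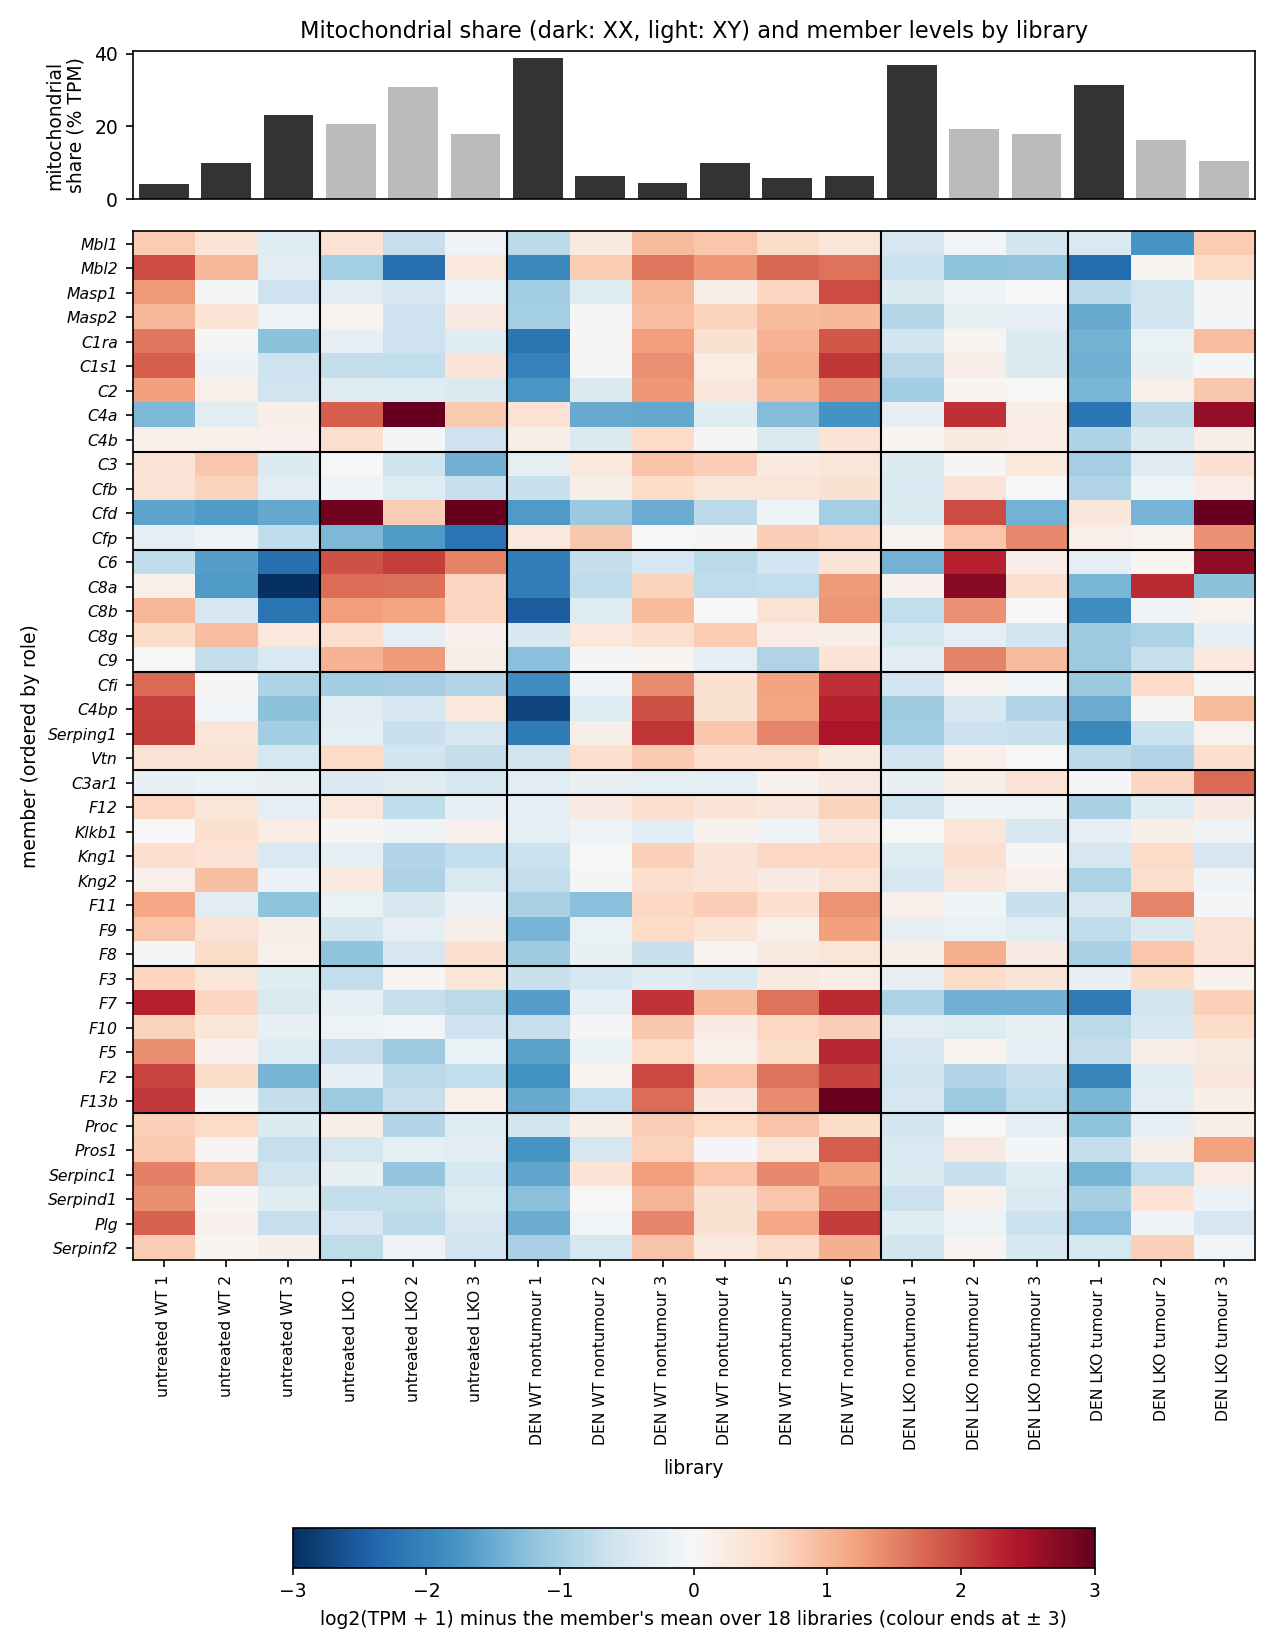
Levels of the 42 tested genes (rows, ordered by role) in 18 libraries (columns), as log2(TPM + 1) minus the gene's mean over the libraries, under bars of the mitochondrial share of TPM (dark bars XX, light bars XY). Most rows are blue in DEN WT 1 and LKO tumour 1, while C4a, Cfd, C6, C8a and C9 are red in untreated LKO.

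**Figure D2:**
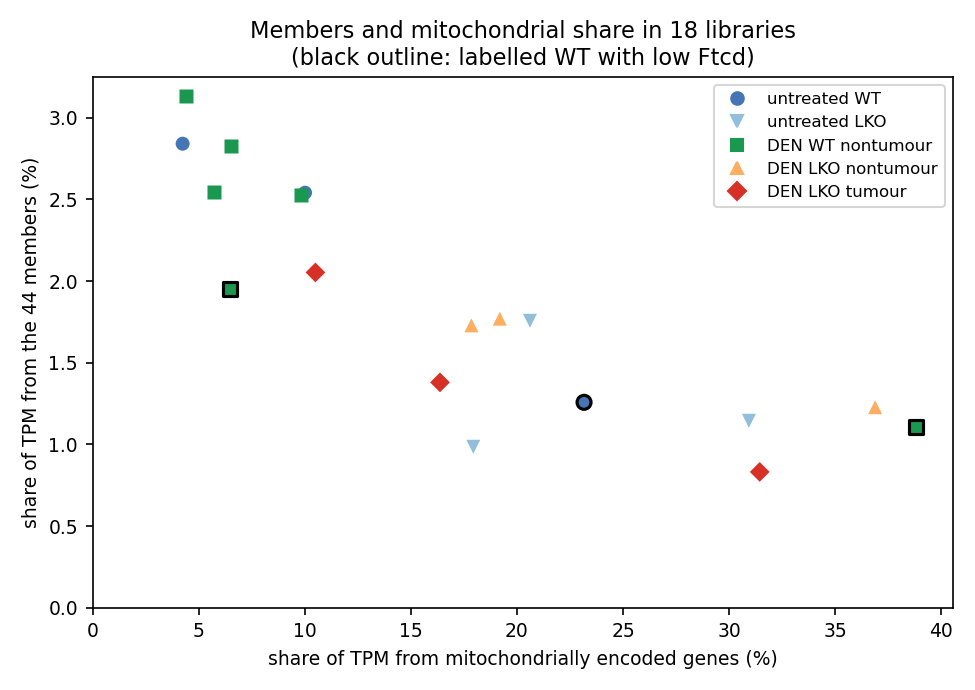
Share of TPM from all 44 genes (y axis, %) against the share from mitochondrially encoded genes (x axis, %), 1 point per library, shaped by group, with black outlines for libraries labelled WT with low Ftcd. The 6 WT libraries without an outline lie at 2.525% or more, and the other 12 libraries lie at 2.053% or less.

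Of all tests on the 42 genes, 1 passed at an adjusted p under 0.05: Cfp was higher in nontumour liver of DEN-treated LKO mice than in untreated LKO liver. Of all 13872 tested genes, 0.0649% passed in that comparison (0.036% higher). In the other comparisons 0 of the 42 passed. The share of all tested genes that passed was 0.433% between untreated LKO and WT, 0.0577% between DEN LKO nontumour and DEN WT, 0.497% between LKO tumour and DEN WT, and 0.0% in LKO tumour against LKO nontumour, in DEN WT against untreated WT and in the difference of the genotype effects with and without DEN. At an unadjusted p under 0.05 stood 6 of the 42 genes between untreated LKO and WT (4.15% of all genes), 3 between DEN LKO nontumour and DEN WT (13.1%), 1 in LKO tumour against nontumour (2.74%), 5 in LKO tumour against DEN WT (10.5%), 1 in DEN WT against untreated WT (0.685%), 2 in DEN LKO nontumour against untreated LKO (5.96%) and 2 in the difference of genotype effects (2.39%). In untreated liver 5 of the 6 were higher in LKO (1.46% of all genes) and 1 was lower (2.7%). The share of the 42 genes was 14.3% there, above its background, and 7.14% and 11.9% in the comparisons of LKO nontumour and of tumour with DEN WT, below and near theirs. The list was drawn up with earlier results of these data known, so these shares are not a test of the group.

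The alternative pathway amplifies C3 cleavage; C3 is its substrate, factor B (Cfb) and factor D build the convertase, and properdin stabilises it. Cfp (chrX:20925454-20931555 on mm10) was at 16.2, 18.0 and 11.5 TPM in untreated WT and at 7.38, 5.57 and 3.59 TPM in untreated LKO. In DEN WT it ranged from 20.0 to 36.1 TPM with a median of 28.7 TPM. LKO nontumour libraries held 21.7, 36.7 and 56.5 TPM, and LKO tumours 22.7, 21.8 and 53.8 TPM. All 12 DEN libraries thus stood above all 6 untreated ones, which was true of 9 of the 13872 tested genes (0.0649%). Within LKO the difference of DEN nontumour from untreated liver was 2.53 ± 0.45 (SE; 95% interval 1.60 to 3.47; limma, 3 libraries against 3, adjusted p = 0.0459). Within WT, where the groups did not overlap either (0.49% of all genes), it was 0.83 ± 0.39 with an adjusted p of 1. Without the low-Ftcd libraries labelled WT, the difference within WT was 0.58 ± 0.48. The genotype effect on Cfp was -1.34 ± 0.45 without DEN (adjusted p = 0.616, groups not overlapping) and 0.36 ± 0.39 with DEN (adjusted p = 0.634). The difference between these effects, 1.71 ± 0.59, had an unadjusted p of 0.00991 and an adjusted p of 1 in limma. Without the low-Ftcd libraries labelled WT it was 1.95 ± 0.665.

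The call on Cfp was at the edge of the threshold. Leaving out any 1 of the 6 libraries moved the difference to between 2.21 and 2.88 and the adjusted p to between 0.0505 and 0.304 in limma, so each of the 6 ended the call. It held with a term for XX or XY (adjusted p = 0.00718) and with the mitochondrial share as covariate (adjusted p = 0.0146). Median-ratio scaling (adjusted p = 0.0728), a fit of the compared groups alone (0.383) and a smaller pseudocount of 0.1 (0.0645) ended it. Of the 7 Kupffer cell and macrophage markers, 6 stood higher in every LKO nontumour library than in any untreated LKO library (9.86% of all tested genes did). The 7 summed to 26.4 to 50.7 TPM in untreated LKO and to 86.5 to 229.9 TPM in LKO nontumour liver. The 6 neutrophil and monocyte markers each overlapped between these groups and summed to 3.75 to 10.9 and to 11.5 to 37.1 TPM. In WT the Kupffer sums overlapped, at 50.5 to 128 TPM untreated and 72.2 to 249 TPM with DEN. The part of these cells in the level of Cfp was not tested.

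**Figure D3:**
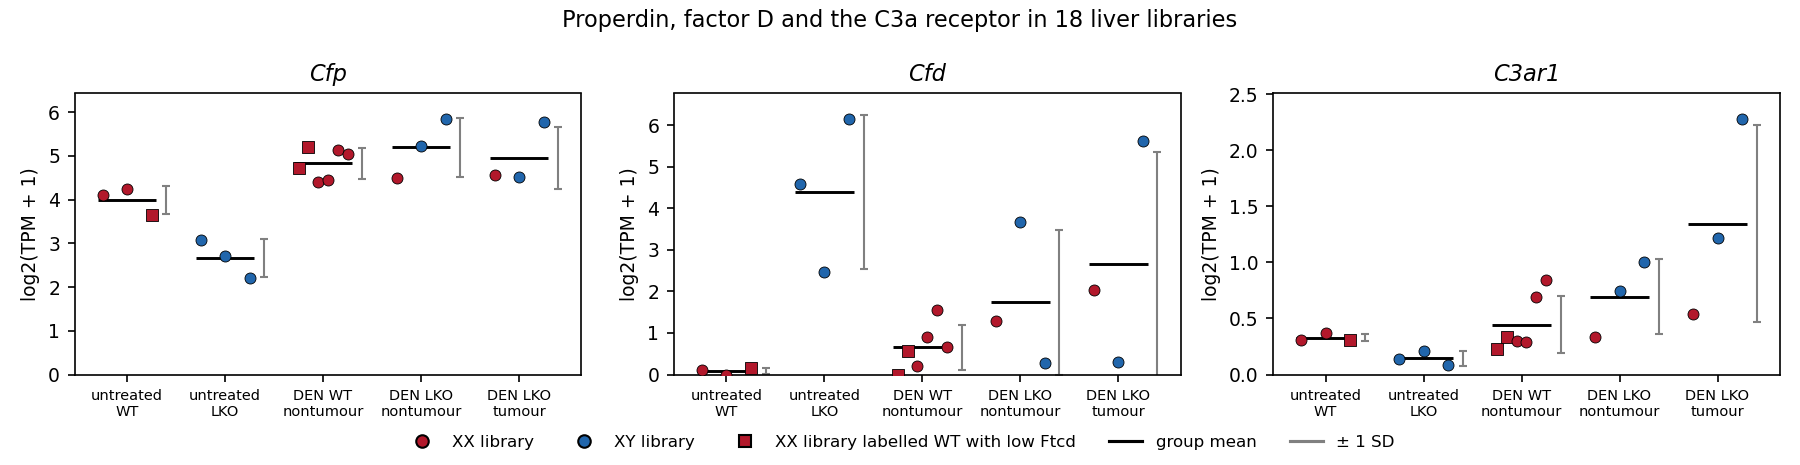
Cfp, Cfd and C3ar1 as log2(TPM + 1) in each library, by group, with the group mean (bar) and 1 SD (bracket); circles are XX (red) or XY (blue) and squares are libraries labelled WT with low Ftcd. Every DEN library lies above every untreated library for Cfp (20.0 to 56.5 against 3.59 to 18.0 TPM), and C3ar1 is highest in LKO tumour 3 at 3.85 TPM.

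Factor D (chr10:79890853-79892655), the protease that cuts factor B, was low in every WT library and spread widely in LKO. Cfd stood at 0.08, 0 and 0.11 TPM in untreated WT and at 23.1, 4.50 and 70.0 TPM in untreated LKO. DEN WT libraries held 0 to 1.94 TPM with a median of 0.54 TPM. In LKO nontumour liver it was 1.43, 11.7 and 0.21 TPM, and in tumour 3.09, 0.24 and 48.0 TPM. The 11 XX libraries ranged from 0 to 3.09 TPM (median 0.49), both XX libraries of LKO mice included, and the 7 XY libraries from 0.21 to 70.0 TPM (median 11.7). The untreated groups did not overlap, yet the difference of 4.31 ± 1.07 did not pass (limma adjusted p = 0.13); with median-ratio scaling it did (adjusted p = 0.0337). With a term for XX or XY it was 3.50 ± 1.60 (adjusted p = 0.199). The 4 adipocyte markers summed to at most 1.37 TPM, all of it Retn, in untreated LKO 3, the library with the highest Cfd. The next sum, 1.25 TPM, was in DEN WT 5, which had the highest Cfd of the WT libraries. In LKO tumours, where Cfd reached 48.0 TPM, the sum was at most 0.04 TPM. In LKO nontumour liver, where Cfd reached 11.7 TPM, it was at most 0.17 TPM. Lep was at 0 in 18 of 18. The part of fat tissue in the Cfd values was not tested. In LKO liver Cfd differed by -2.66 ± 1.07 between DEN nontumour and untreated libraries (adjusted p = 0.711), with overlapping groups. C3, the most abundant of the 44 genes at a median of 7112 TPM, ranged from 2347 to 11373 TPM and Cfb from 454 to 1358 TPM. Between untreated LKO and WT, C3 differed by -0.95 ± 0.49 (adjusted p = 0.831), and neither gene passed in any comparison.

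The terminal pathway builds the membrane attack complex: C6 and C7 insert, C8 (alpha, beta and gamma chains) penetrates, and C9 polymerises. C6, C8a and C9 were higher in every untreated LKO library than in any untreated WT library, as were C4a and Cfd, which makes 5 of the 42 genes (2.45% of all tested genes stood that way). None of the 5 passed the adjusted test. In LKO nontumour against DEN WT, 0 of the 42 stood apart in either direction (2.33% of all genes higher, 1.73% lower); the same was true of LKO tumour against LKO nontumour (1.81% and 2.02%) and of LKO tumour against DEN WT (2.05% and 1.14%). The 6 male liver markers summed to 20.5 to 54.3 TPM in untreated WT and to 2896 to 5531 TPM in untreated LKO. The 6 female liver markers summed to 2375 to 8158 and to 0.96 to 9.08 TPM in the same groups. Sex and genotype cannot be told apart there.

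C6 (chr15:4727175-4814967) was at 4.78, 2.15 and 1.06 TPM in untreated WT and at 35.9, 40.3 and 26.9 TPM in untreated LKO. DEN WT libraries ranged from 1.36 to 11.8 TPM with a median of 5.23 TPM. LKO nontumour libraries held 2.69, 48.8 and 10.4 TPM and tumours 7.09, 9.20 and 61.3 TPM. The 7 XY libraries ranged from 9.20 to 61.3 TPM (median 35.9) and the 11 XX libraries from 1.06 to 11.8 TPM (median 4.78). The untreated difference was 3.38 ± 0.84 (limma adjusted p = 0.126). It passed under 5 of 10 other settings, with adjusted p between 0.00766 and 0.382 over them, and in 0 of the 6 fits that left out 1 library (adjusted p 0.173 to 0.537). With a term for XX or XY it was 1.22 ± 1.02 (adjusted p = 0.38). That term is estimated from the LKO libraries of DEN-treated mice alone, since those are the groups that hold both sexes. Its XX side is LKO nontumour 1 and LKO tumour 1, with mitochondrial shares of 36.88% and 31.44%. The XY libraries of these groups held at most 19.19% and 16.37%. In every fit with the term, sex and this share therefore cannot be told apart.

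C8a (chr4:104815679-104876398) stood at 71.5, 19.3 and 7.08 TPM in untreated WT and at 206, 205 and 100.4 TPM in untreated LKO. In DEN WT it ranged from 14.5 to 158 TPM with a median of 37.9 TPM. LKO nontumour libraries held 70.3, 436 and 91.4 TPM and tumours 24.2, 306 and 27.1 TPM. Here the XX and XY libraries overlapped, at 7.08 to 158 and 27.1 to 436 TPM. The untreated difference of 2.84 ± 1.02 did not pass (adjusted p = 0.788), and with the XX or XY term it was 1.15 ± 1.42.

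C9 (chr15:6445327-6498751) gave 168, 102 and 123 TPM in untreated WT and 348, 412 and 189.6 TPM in untreated LKO. It ranged from 69.5 to 224 TPM in DEN WT, with a median of 151 TPM. LKO nontumour livers gave 134, 470.0 and 327 TPM and tumours 78.6, 104 and 211 TPM. LKO nontumour 2, an XY library, was the highest of the 18 for C8a, C8b and C9. C9 differed between untreated LKO and WT by 1.22 ± 0.56 (adjusted p = 0.831), a difference that was -0.002 ± 0.70 with the XX or XY term. It was 1.04 ± 0.48 in LKO nontumour against DEN WT (adjusted p = 0.377) and -1.19 ± 0.56 in tumour against LKO nontumour liver (adjusted p = 0.943).

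C8b overlapped between the groups of every comparison, at 6.51 to 67.3 TPM in untreated WT and 52.6 to 81.3 TPM in untreated LKO. The difference there was 1.60 ± 0.90 (adjusted p = 0.831). It passed in the fit with the mitochondrial share as covariate (2.94 ± 0.50, adjusted p = 0.00967), while with the XX or XY term the difference was -0.03 ± 1.23. C8g, the gamma chain, did not follow C8a. It was at 727, 948 and 618 TPM in untreated WT and at 701, 401 and 545 TPM in untreated LKO. In DEN WT it ranged from 352 to 837 TPM with a median of 598 TPM. Levels in LKO nontumour liver were 344, 408 and 329.9 TPM, and in tumours 237, 257 and 415 TPM, low against DEN WT but overlapping it. The tumour difference from DEN WT was -0.999 ± 0.351 (adjusted p = 0.248). C7, the remaining pore component, is listed between 0 and 0.44 TPM and was not tested.

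**Figure D4:**
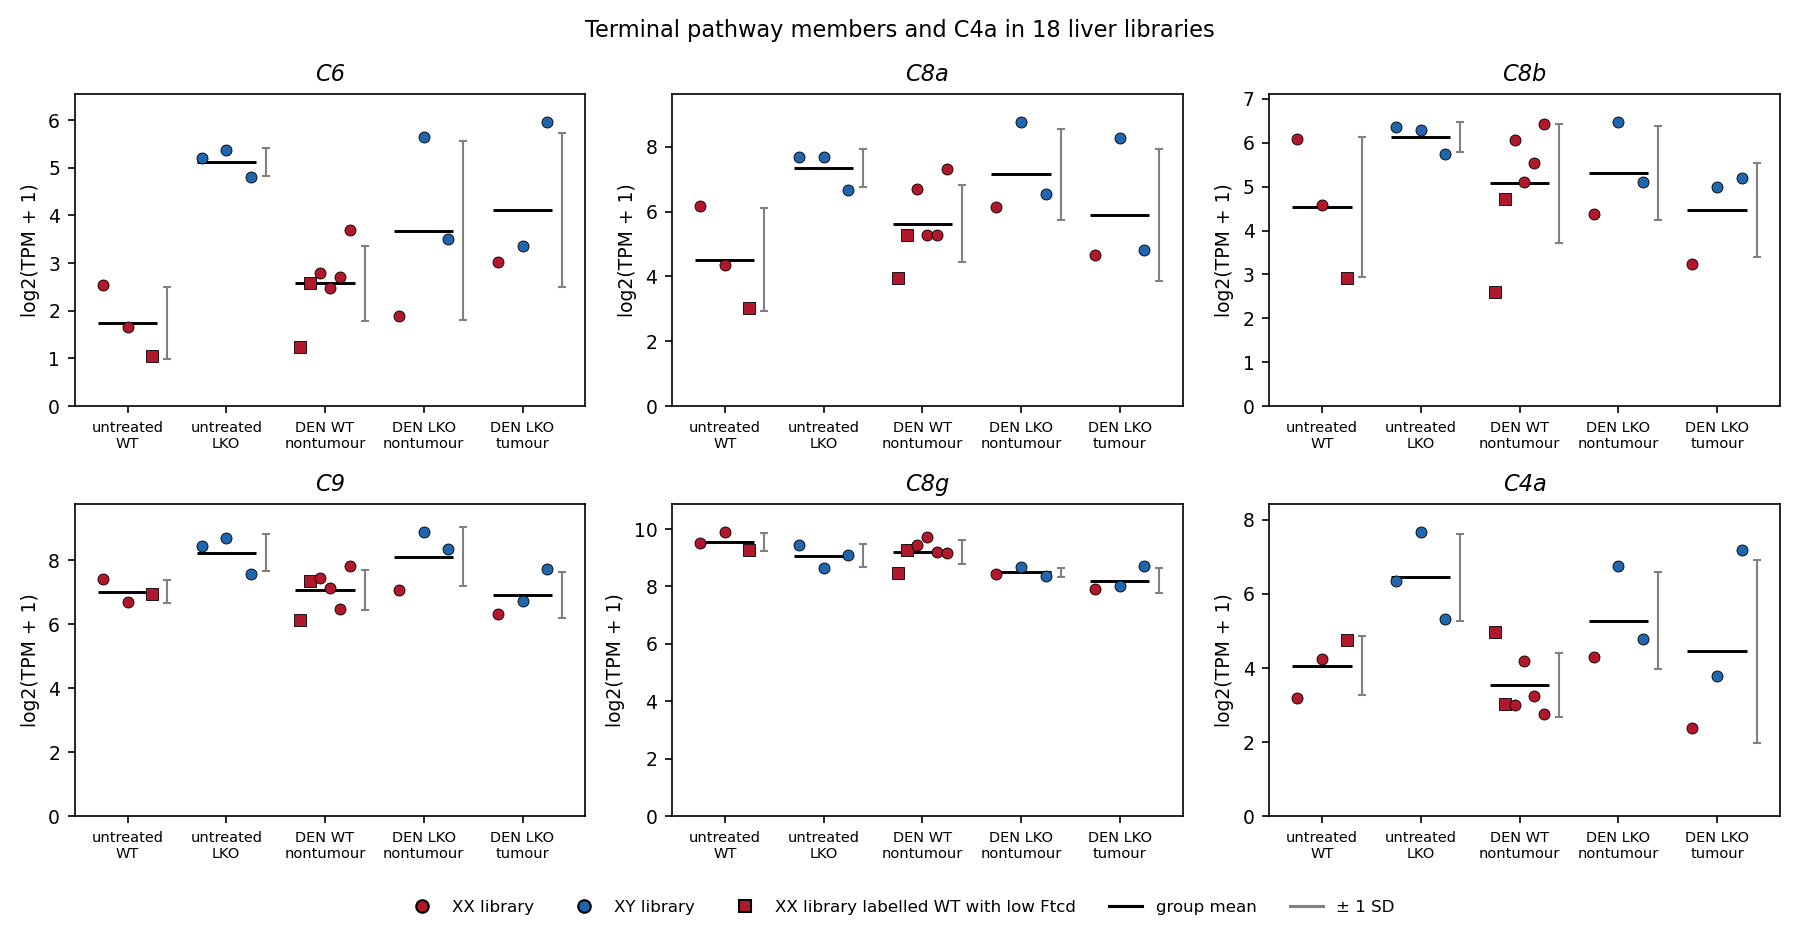
The 5 tested terminal pathway genes and C4a as log2(TPM + 1) in each library, by group, with the group mean (bar) and 1 SD (bracket); circles are XX (red) or XY (blue) and squares are libraries labelled WT with low Ftcd. For C6, untreated LKO lies at 26.9 to 40.3 TPM and untreated WT at 1.06 to 4.78 TPM, while C8g overlaps between these groups.

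Among the initiating proteins, C4a was high in untreated LKO and the mannose-binding lectin Mbl2 was low in most LKO libraries. C4a stood at 8.21, 17.8 and 26.0 TPM in untreated WT and at 80.3, 202 and 39.2 TPM in untreated LKO. It ranged from 5.81 to 30.7 TPM in DEN WT, with a median of 7.87 TPM. The LKO nontumour values were 18.8, 107 and 26.6 TPM and the tumour values 4.26, 12.7 and 144 TPM. The untreated difference was 2.38 ± 0.98 (adjusted p = 0.831) and with the XX or XY term 0.11 ± 1.25. Its copy C4b was at 792, 782 and 772 TPM in untreated WT and at 1011, 679.5 and 461 TPM in untreated LKO. In DEN WT it ranged from 522 to 1055 TPM with a median of 764 TPM, and LKO nontumour libraries held 735, 852 and 832 TPM. Tumours gave 374, 527 and 805 TPM, a difference of -0.57 ± 0.42 from LKO nontumour liver (adjusted p = 0.943), with overlapping groups.

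Mbl2 (chr19:30232942-30239687), which binds microbial sugars, gave 808, 405 and 164 TPM in untreated WT and 101, 42.0 and 254 TPM in untreated LKO. In DEN WT it ranged from 53.0 to 676 TPM with a median of 564 TPM. In LKO nontumour liver it stood at 131, 88.3 and 89.7 TPM and in tumours at 40.9, 213 and 311 TPM. The low value of 53.0 TPM in DEN WT 1 made the DEN groups overlap. LKO nontumour differed from DEN WT by -1.86 ± 0.81 (adjusted p = 0.362). Masp2, the protease that MBL carries, was at 215, 144 and 96.9 TPM in untreated WT and at 113, 69.6 and 128 TPM in untreated LKO. It ranged from 52.7 to 212 TPM in DEN WT, with a median of 189 TPM. Nontumour LKO libraries had 58.8, 92.2 and 90.1 TPM and tumours 37.0, 72.1 and 103 TPM. The tumour difference from DEN WT was -1.13 ± 0.48 (adjusted p = 0.384), and it passed with median-ratio scaling (adjusted p = 0.0168). Mbl1, the other mannose-binding lectin, ranged over all libraries from 39.1 to 264 TPM and the protease Masp1 from 5.20 to 49.2 TPM. The C1 proteases C1ra and C1s1 ranged from 7.53 to 140.3 TPM and from 11.8 to 228 TPM, and C2, which C1s cuts, from 6.63 to 68.3 TPM. Of the 9 initiation genes, 8 had a negative estimate in LKO tumour against DEN WT, with a median of -0.86. C4a was the exception. Over all tested genes, 52.8% of the estimates were positive in that comparison.

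The complement regulators Cfi (factor I, which cuts C3b), C4bp (its cofactor), Serping1 (C1 inhibitor) and Vtn (vitronectin, which blocks the pore) had negative estimates for LKO against WT both without DEN (median -0.68) and with it (median -1.004), and 0 of 4 passed. Of all tested genes, 23.4% had positive estimates without DEN and 38.0% with it. C4bp spread 38.4 times between its lowest library (DEN WT 1, 6.47 TPM) and its highest (DEN WT 6, 248 TPM), both labelled WT and given DEN. Serping1 ranged from 38.2 to 926 TPM and Cfi from 33.0 to 569.8 TPM between the same libraries, while Vtn spanned 1016 to 3276 TPM.

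The anaphylatoxin receptors, which bind the C3a and C5a fragments and belong mainly to myeloid cells, were barely detected. C3ar1 was at 0.24, 0.29 and 0.24 TPM in untreated WT and at 0.10, 0.16 and 0.06 TPM in untreated LKO. DEN WT libraries ranged from 0.17 to 0.79 TPM with a median of 0.245 TPM; LKO nontumour livers gave 0.26, 0.68 and 1.00 TPM and tumours 0.45, 1.33 and 3.85 TPM. The tumour difference from DEN WT was 0.90 ± 0.30 (adjusted p = 0.223). It passed without LKO tumour 1 (adjusted p = 0.0184) and with median-ratio scaling (adjusted p = 0.0435). C3ar1 reached 1 TPM in only 3 libraries, LKO nontumour 3, LKO tumour 2 and LKO tumour 3. It was thus tested only because it was high there, and its results for LKO nontumour liver and for tumours are not independent of that filter. LKO tumour 3 also held the highest C5ar1, at 4.95 TPM, where no other library exceeded 0.77 TPM. Kupffer cell and macrophage markers summed to 30.9 to 178 TPM in tumours and 72.2 to 249 TPM in DEN WT, and neutrophil and monocyte markers to 5.48 to 18.9 and 6.09 to 25.1 TPM. Clec4f, a Kupffer cell gene, was the largest term of the first sum in every library but LKO tumour 3. There the macrophage gene Cd68 was, at 95.6 TPM, and no other library exceeded 21.03 TPM for it. C1qa, also made by macrophages, was at 350.2 TPM in LKO tumour 3 and at most at 95.5 TPM in any other library. The part of these cells in the C3ar1 values was not tested.

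In the coagulation cascade, factor VII (F7), the partner of tissue factor, had the most negative estimate of the 42 genes in LKO nontumour against DEN WT liver. F7 (chr8:13026034-13035809) was at 106, 32.0 and 14.5 TPM in untreated WT and at 16.4, 12.0 and 10.9 TPM in untreated LKO. In DEN WT it ranged from 5.71 to 98.2 TPM with a median of 52.2 TPM. Levels in LKO nontumour liver were 10.2, 6.76 and 6.71 TPM and in tumours 3.83, 13.1 and 33.7 TPM. DEN WT 1 lay below all 3 LKO nontumour libraries, the other 5 above them. The difference between LKO nontumour and DEN WT was -2.11 ± 0.79 (adjusted p = 0.342). Within LKO, all 3 DEN nontumour libraries lay below all 3 untreated ones for F7 (2.46% of all genes stood that way), yet the difference was -0.67 ± 0.92 (adjusted p = 1). Of all genes, 9.86% stood the other way, among them Cfi, Cfp and C3ar1. C3ar1 was tested only because of its level in LKO nontumour 3, LKO tumour 2 and LKO tumour 3, so its place there is not independent of the filter.

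Tissue factor (F3), the membrane trigger of clotting, was at 2.19, 1.62 and 0.60 TPM in untreated WT and at 0.23, 1.13 and 1.63 TPM in untreated LKO. DEN WT libraries ranged from 0.29 to 1.47 TPM with a median of 0.555 TPM; the LKO nontumour values were 0.72, 1.98 and 1.69 TPM and the tumour values 0.75, 1.98 and 1.22 TPM. DEN WT differed from untreated WT by -0.47 ± 0.33 (adjusted p = 1). Prothrombin (F2) ranged from 89.6 to 1454 TPM, factor X (F10) from 138 to 424 TPM, factor V (F5) from 7.16 to 117 TPM and the factor XIII B chain (F13b) from 4.48 to 120.0 TPM. All 6 genes of the extrinsic and common route had negative estimates in untreated LKO against WT (median -0.99), and 0 passed. Most of all tested genes were negative there too, since 23.4% had positive estimates.

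In the contact and intrinsic route, factor VIII (F8), the cofactor of factor IX made by sinusoidal endothelium, was at 5.40, 8.58 and 6.31 TPM in untreated WT and at 1.81, 3.60 and 8.16 TPM in untreated LKO. It ranged from 2.12 to 7.34 TPM in DEN WT with a median of 5.22 TPM; in LKO nontumour liver it stood at 6.43, 12.9 and 6.70 TPM and in tumours at 2.35, 10.7 and 7.77 TPM. LKO nontumour liver differed from untreated LKO liver by 0.92 ± 0.53 (adjusted p = 0.978), with overlapping groups. The kininogens Kng1 and Kng2, factor XII (F12), factor XI (F11), factor IX (F9) and Klkb1 had negative estimates in untreated LKO against WT, between -0.80 and -0.15 with F8 included, and 0 of 7 passed. Positive estimates made up 23.4% of all tested genes in that comparison. Kng1 ranged from 708 to 2117 TPM, Kng2 from 125 to 447 TPM, F12 from 116 to 362 TPM, F11 from 3.90 to 31.1 TPM and F9 from 13.2 to 87.0 TPM. F9 did not overlap between these groups, nor did the serpins Serpind1 (heparin cofactor) and Serpinf2 (antiplasmin), Cfp and C3ar1; these 5 were lower in untreated LKO, as were 8.97% of all tested genes.

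The anticoagulants and fibrinolysis genes (protein C Proc, protein S Pros1, antithrombin Serpinc1, Serpind1, plasminogen Plg and Serpinf2) had 6 of 6 negative estimates in untreated LKO against WT (median -0.89) and 6 of 6 in LKO nontumour against DEN WT (median -0.70), and 0 passed. Antithrombin, the most abundant of them, ranged from 504 TPM in DEN WT 1 to 4247 TPM in untreated WT 1. Plg ranged from 128 to 1539 TPM, Proc from 135 to 567 TPM, Serpind1 from 50.7 to 337 TPM, Serpinf2 from 133 to 550.0 TPM and Pros1 from 1.29 to 26.5 TPM. The whole group of 42 had a median difference of -0.60 in untreated LKO against WT (all tested genes -0.33), -0.53 in LKO nontumour against DEN WT (all genes -0.19) and -0.56 in LKO tumour against DEN WT (all genes 0.04). Median-ratio scaling moved the medians of the first pair to -0.12 and 0.01, and the number of positive estimates among the 42 from 6 to 15, so the sign of a small estimate in untreated liver depends on the scaling. The sign depends on the model too. With the mitochondrial share as covariate, 21 of the 42 estimates were positive in untreated liver (53.8% of all genes), 36 in LKO nontumour against DEN WT (70.4%) and 23 in LKO tumour against DEN WT (72.8%). The medians were then 0.00039, 0.33 and 0.03. With the replicate number as a block, the median in LKO nontumour against DEN WT was -0.03, with 19 of 42 positive (51.4% of all genes). Without another scaling, positive estimates made up 23.4% of all tested genes in untreated liver, 38.0% in LKO nontumour against DEN WT (12 of the 42 genes) and 52.8% in LKO tumour against DEN WT (10 of the 42).

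**Figure D5:**
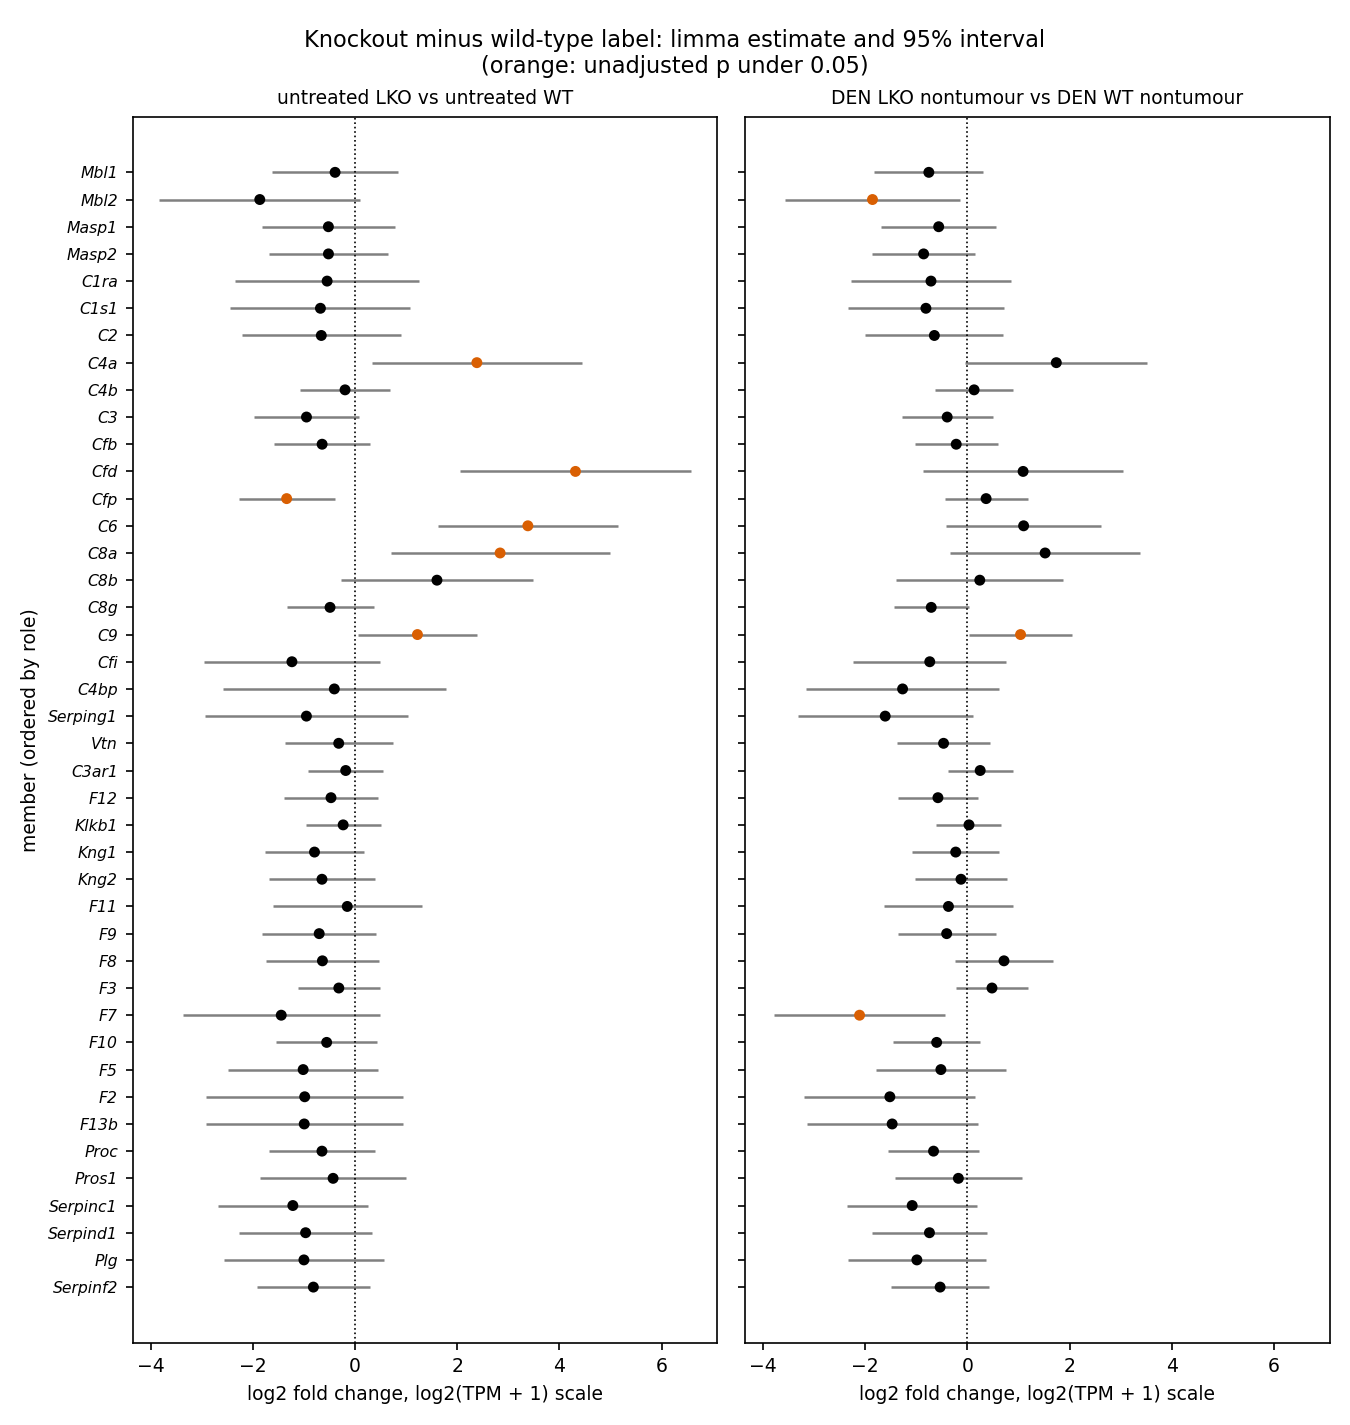
Estimated log2 fold change (point, x axis) and 95% interval (line) for LKO minus WT label in untreated liver (left) and in DEN nontumour liver (right), 1 row per gene; orange points have an unadjusted p under 0.05. Most points lie left of 0 in both panels (36 and 30 of 42), while C4a, Cfd, C6, C8a and C9 lie right of 0; with the mitochondrial share as covariate, 21 and 6 of 42 estimates were negative.

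In untreated liver, without the low-Ftcd library, 0 of the 42 genes passed (0.425% of all genes did) and 17 had an unadjusted p under 0.05 (8.49% of all genes). The median of the 42 was then -0.89 (all genes -0.41). C6 differed by 3.03 ± 0.92 (adjusted p = 0.336), Cfd by 4.35 ± 1.29 (0.308), C8a by 2.09 ± 1.05 (0.581), C4a by 2.73 ± 1.099 (0.546), C9 by 1.19 ± 0.61 (0.581) and Cfp by -1.52 ± 0.51 (0.407), in limma.

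The DEN comparisons with WT changed when the 3 libraries labelled WT with low Ftcd, 2 of them given DEN, were left out. Without them, 8 genes were lower in LKO nontumour liver than in the remaining DEN WT liver (5.65% of all genes were lower): C4bp, F13b, F2, F7, Mbl2, Plg, Serpinc1 and Serping1. F7 then differed by -3.02 ± 0.58 (limma adjusted p = 0.0193) and antithrombin by -1.66 ± 0.41 (adjusted p = 0.0326). In LKO tumour against the remaining DEN WT liver, 6 were lower (2.25% of all genes): F2, F7, Masp2, Plg, Serpinc1 and Serping1. The mitochondrial share differed between the same libraries. It was 4.39% to 9.82% in the 4 remaining DEN WT libraries, 17.85% to 36.88% in LKO nontumour liver and 10.5% to 31.44% in LKO tumours. C3ar1 differed in tumours from the remaining DEN WT liver by 0.82 ± 0.35 (adjusted p = 0.219) and C8g by -1.17 ± 0.35 (adjusted p = 0.0831). With the mitochondrial share as a covariate as well, 0 of the 42 genes passed in either comparison. Of all 13872 tested genes, 5 then passed for LKO nontumour and 151 for LKO tumour. The share of the remaining DEN WT libraries overlapped neither that of LKO nontumour liver nor that of LKO tumours. In both comparisons that fit can therefore hardly tell share and group apart.

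Of the rest of the complement system, 22 of 30 listed genes were tested, and of further coagulation, fibrinolysis and kinin genes 23 of 34. Fcna, the ficolin made by macrophages that starts the lectin route, was the 1 gene that passed in any comparison. It was at 10.8 to 64.6 TPM in DEN WT and at 5.90, 2.87 and 7.16 TPM in LKO tumours, a difference of -2.43 ± 0.51 (adjusted p = 0.0398), and the groups did not overlap. The call was lost in 7 of 9 fits that left out 1 library (adjusted p 0.00621 to 0.219 over the 9). It held under 8 of 12 other settings, among them removal of the low-Ftcd libraries (adjusted p = 0.00328). Those that lost it included a term for XX or XY (adjusted p = 0.476) and the replicate block. Of the 7 Kupffer cell and macrophage markers, 4 (Clec4f, Marco, Timd4 and Vsig4) were lower in every tumour than in any DEN WT library (1.14% of all tested genes were). Adgre1, Cd68 and Csf1r overlapped. Clec4f was at 41.9, 10.3 and 41.3 TPM in the tumours and at 42.6 to 122 TPM in DEN WT. The part of these cells in the Fcna difference was not tested. Fcna was also listed at 4.27 to 12.1 TPM in untreated LKO and 10.95 to 38.5 TPM in untreated WT (difference -1.73 ± 0.58, adjusted p = 0.635). No gene of the coagulation list passed.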

How the data were processed

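Expression was measured in 18 mouse liver libraries, with total RNA extracted by TRIzol and libraries made with a TruSeq kit, per the labels' protocols. The authors deposited TPM values per gene. The submitters' processing notes name HISAT, RSEM, fastp and mm10, and versions and settings are not stated there. Totals of 999999 to 1000001 TPM per library hide the depth, so it is unknown and no counting interval was computed. The 5 columns of group means in the table were not used, and there were 0 other columns per sample.

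Groups came from the labels. The 44 genes, their roles and the lists beside them were chosen with earlier results of these data known. Coordinates are from GENCODE M21, which held 55141 of the 58126 identifiers. Values were taken as log2(TPM + 1), and genes that reached 1 TPM in 3 libraries or more (13872) were tested. Limma 3.58.1 in R 4.3.3 fitted 5 group means over all 18 libraries (13 residual degrees of freedom, variance trend), and each of 7 contrasts was tested 2-sided with Benjamini-Hochberg adjustment over all tested genes, passing at an adjusted p under 0.05. The fit was tested on simulated data. Values in every library (for the 6 DEN WT libraries, the lowest, median and highest) are given for genes that passed in any comparison and for up to 3 further genes with the smallest p in each; of the other pathway lists, genes that passed are named. No library repeated another (0 identical columns). Alternatives were a pseudocount of 0.1, no filter, median-ratio scaling, quantile normalization, TPM without mitochondrially encoded genes, the compared groups alone, the replicate number as block, an XX or XY term, the mitochondrial share as covariate, removal of the 3 low-Ftcd libraries labelled WT, and removal of each library. For the comparisons with DEN WT, that removal was also combined with either covariate, which was chosen after seeing the data. The rest used Python 3.11.15 with pandas 2.3.3, numpy 2.4.6, matplotlib 3.10.9 and scipy 1.17.1.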

Additional observations from a re-analysis of the deposited data

Results flagged for a closer look

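Within the 6 DEN WT libraries, the highest sample stood far from the others for 2 of the 44 genes by Dixon's test, where chance flags about 1 in 20 groups. F5 was at 116.86 TPM in DEN WT 6, and the other 5 libraries lay between 7.16 and 36.3 TPM. C5ar1 was at 0.77 TPM in the same library, with the others between 0.11 and 0.32 TPM.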

How the results depend on the processing

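In untreated LKO against WT, the 0 genes that passed became 2 with median-ratio scaling (C6 and Cfd, beside 94 genes in all). Quantile normalization gave 1 (C6, 80 in all), as did TPM without mitochondrially encoded genes (C6, 69 in all). The compared groups alone also gave 1 (C6, 53 in all). The mitochondrial share as covariate gave 2 (C6 and C8b, 68 in all). In LKO nontumour against DEN WT, 0 became 8 without the low-Ftcd libraries labelled WT (beside 1159 genes in all). It became 21 (all lower, beside 5112 genes in all) when an XX or XY term was added to that removal. In LKO tumour against DEN WT, 0 became 2 with median-ratio scaling (C3ar1 and Masp2, beside 327 genes in all) and 1 with quantile normalization (Masp2, 234 in all). It became 6 without the low-Ftcd libraries (420 in all) and 8 with the XX or XY term added (388 in all). Leaving out 1 library gave 0 to 1 (C3ar1, without LKO tumour 1, 485 in all). In DEN LKO nontumour against untreated LKO, the 1 gene (Cfp) became 0 with a pseudocount of 0.1, with median-ratio scaling, with the compared groups alone and with the replicate block, and leaving out 1 library gave 0 to 0. The cause was not tested. With the replicate number as a block, Cfp kept its difference of 2.53 with an adjusted p of 0.544 at 2 residual degrees of freedom. Same-numbered libraries deviated together (correlation above 0.1) in no directly compared pair of groups at all 3 numbers (LKO tumour with DEN WT: 0.61, 0 and 0.43), and in 4 of 18 checks of a library against the other group of a comparison it correlated best with its own number (a library enters several checks), so the numbers were not taken as pairs. LKO nontumour with LKO tumour, whose sex calls match at each number, gave 0.35, 0.3 and -0.03. With the replicate number as a block, 0 of the 42 genes passed between them. Untreated LKO with DEN WT, which meet only in the difference of genotype effects, gave 0.18, 0.29 and 0.47.

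The direction turned for C9 (-0.002) and C8b (-0.03) in untreated liver with the XX or XY term. For Cfp it turned in LKO nontumour against DEN WT with that term (-0.171, and -0.103 without the low-Ftcd libraries), in tumour against LKO nontumour without LKO nontumour 3 (0.081; -0.656 to 0.081 over the fits without 1 library), and in tumour against DEN WT with that term (-0.415, and -0.346 without the low-Ftcd libraries) or without LKO tumour 3 (-0.29; -0.29 to 0.342 over the fits without 1 library). C6 turned in tumour against DEN WT with both changes (-0.249). Counts over all genes ranged from 10 to 94 in untreated liver (main 60), 0 to 5112 in LKO nontumour against DEN WT (main 8; 202 without DEN WT 1), 0 to 485 in tumour against DEN WT (main 69; 485 without LKO tumour 1), 0 to 21 in tumour against LKO nontumour (main 0) and 0 to 189 in DEN LKO nontumour against untreated LKO (main 9). TPM keep no depth, so low genes such as C3ar1, C5ar1 and C7 have a precision that is unknown.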
